A study of Rattus norvegicus with 9 samples.

Results

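The platelet-derived growth factor (PDGF) family was represented in the deposited table by 6 genes: the ligand genes Pdgfa, Pdgfb, Pdgfc and Pdgfd and the receptor genes Pdgfra and Pdgfrb. They were chosen by symbol, with earlier results of these data known. All 6 were found among the 19085 genes listed, and 5 of them were among the 13256 genes with enough reads for a test. Pdgfb was not, with at most 3 reads in any library. Messenger RNA (polyA RNA) had been sequenced from first-passage primary osteoblasts, bone-forming cells released by collagenase from the calvaria of male Sprague-Dawley rats 24 hours old. All 9 libraries came from cells kept for 7 days in osteogenic medium with serum, β-glycerophosphate, ascorbic acid and dexamethasone. The Control group (3 libraries) had this medium alone, the Thrombin group (3 libraries) had thrombin at 20 U/mL in it, and the PD03 group (3 libraries) had thrombin at 20 U/mL together with the MEK inhibitor PD0325901 at 0.1 µM. No group received PD0325901 without thrombin, so its effect on cells not given thrombin was not analysed here. The concentration and the calvarial origin follow the study's design text, whereas a protocol in the labels for short treatments writes 0.1 mM and the tissue label reads knee.

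PDGFs are secreted dimers that bind a pair of receptor tyrosine kinases on mesenchymal cells. PDGF-A and PDGF-B are released in active form, while PDGF-C and PDGF-D become active only after a protease removes their CUB domains. The alpha receptor binds the A, B and C chains, and the beta receptor binds the B and D chains. The activated receptors feed the Ras, MEK and ERK kinase cascade, phosphatidylinositol 3-kinase and phospholipase C. In bone the family is known for driving the migration and proliferation of osteoprogenitors, and platelets, osteoclasts and endothelial cells are known sources of PDGF-BB. Thrombin, the protease of blood clotting, signals through protease-activated receptors and also reaches ERK.

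Total counts per library lay between 15447832 and 19841468. Of the osteoblast markers, Col1a1 accounted for 6.78% to 6.96% of all reads in PD03 and for 4.18% to 5.05% elsewhere, and the transcription factor genes Runx2 (509 to 906 counts) and Sp7 (59 to 122 counts) were present in every library. The markers of mature osteoblasts were at or near 0, with Bglap at 1 to 5 counts and Ibsp at 0 to 1, and Alpl stood at 19 to 41 counts in Control, 6 in Thrombin and 46 to 62 in PD03. The osteoblast label thus rested on Col1a1, Runx2, Sp7 and Spp1, the last at 817 to 3349 counts. Markers of the usual sources of PDGF-B were also low: the 4 platelet genes together stood at 1.14 to 2.02 CPM, the 3 endothelial genes at 5.65 to 10.6 CPM and the 6 myeloid genes at 1.61 to 2.46 CPM. CPM is the count of a gene after TMM scaling of its library to a common total.

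The plot of levels by library shows the 6 genes. Differences were tested in 1 edgeR quasi-likelihood fit of all 9 libraries, with Benjamini-Hochberg adjustment over the 13256 genes. In what follows a gene rose or fell where its adjusted p was under 0.05, and it was called a differentially expressed gene (DEG) where its absolute log2 fold change was also above 0.58. These p-values rest on the spread between libraries of the same group, pooled over the 3 groups and drawn by the fit towards that of other genes. The study describes the 3 libraries of a group as independent samples without saying whether they were separate animals or cultures. In RNA from whole cultures, fewer cells of a type and less RNA per cell cannot be told apart.

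**Figure D1:**
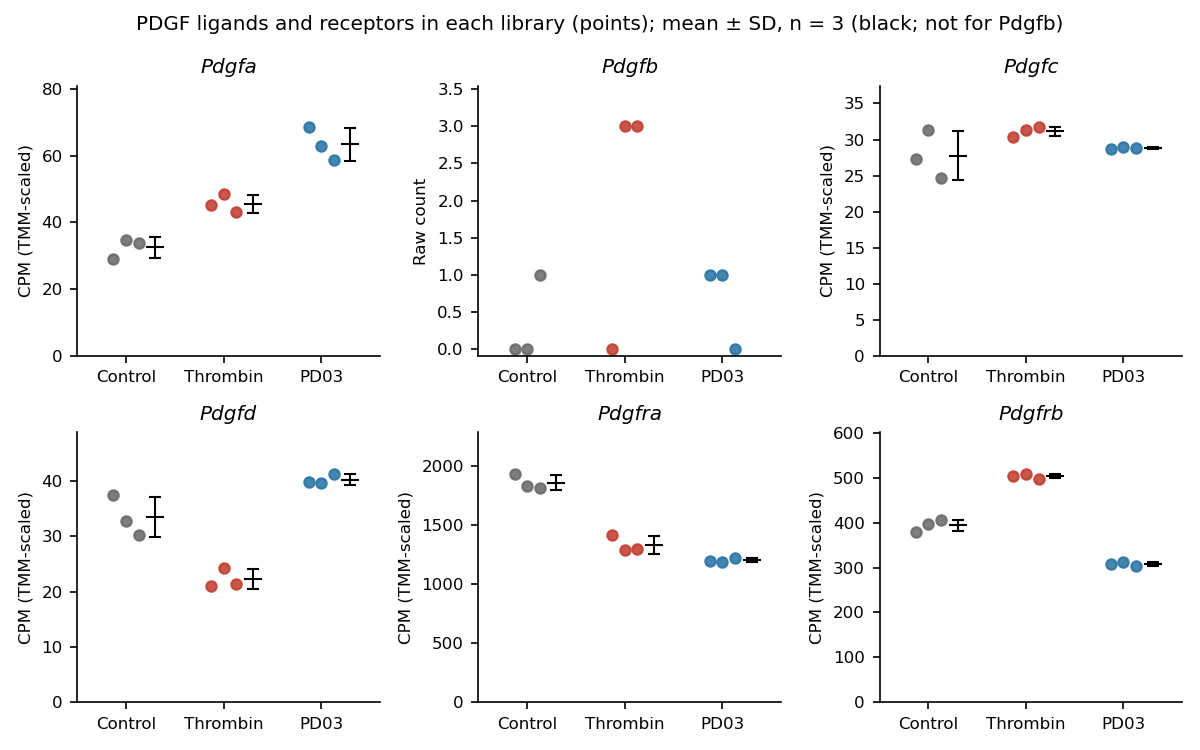
Level of each PDGF gene in the 9 libraries (points), in CPM after TMM scaling, or as the raw count for Pdgfb, with the mean ± SD of 3 libraries in black. Pdgfa stepped up from 32.5 to 45.6 to 63.4 CPM over Control, Thrombin and PD03, Pdgfrb was highest in Thrombin and lowest in PD03, and Pdgfb stayed between 0 and 3 counts.

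Levels of the PDGF genes were set against each other only as FPKM, in which a count is divided by the length of the gene and the total of the library. The marker sums in this report are in CPM and are not corrected for gene length. Pdgfra was by far the most abundant, at 289 ± 12.9 FPKM (SD, n = 3) in Control, which placed it at rank 164 of 19085 genes. Pdgfrb followed with 74.6 ± 1.79 FPKM and rank 784. Both receptors thus lay well above every ligand. Pdgfa led the ligands in Control with 17.3 ± 1.50 FPKM, ahead of Pdgfc with 10.7 ± 1.28 and Pdgfd with 8.87 ± 1.06. Pdgfb came last, with a mean of 0.0125 FPKM. The same order held in Thrombin and in PD03, and the only neighbours whose libraries overlapped were Pdgfc and Pdgfd in Control. Their distance varied, since Pdgfc stood 1.20 times above Pdgfd in Control, 2.03 times in Thrombin and 1.04 times in PD03. By rank among all genes, Pdgfa climbed from 3660 in Control to 2688 in Thrombin and 1879 in PD03.

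Pdgfa (ENSRNOG00000001312), which encodes the A chain that acts on the alpha receptor, was higher in both treated groups, and highest in PD03. Its level was 28.9, 34.7 and 33.9 CPM in the 3 Control libraries, 45.2, 48.5 and 43.1 CPM in the Thrombin libraries, and 68.5, 63.0 and 58.6 CPM in the PD03 libraries. Every Thrombin library lay above every Control library, and every PD03 library lay above both groups. Against Control, Pdgfa rose by 40.7% with thrombin (log2 fold change 0.49, standard error 0.07, adjusted p = 3.8e-07) without passing the fold threshold. Against Thrombin, it rose again in PD03 (log2 fold change 0.48, standard error 0.07, adjusted p = 6.8e-08). The difference between PD03 and Control was 95.8%, and there Pdgfa was a DEG (log2 fold change 0.97, 95% interval 0.83 to 1.11, adjusted p = 2.5e-15). Of the 3 ligand genes tested, only Pdgfa was called between these groups.

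Pdgfa and Pdgfra were the 2 members called DEGs in PD03 against Control, in opposite directions, so a stretch of the start region of each is shown. RefSeq (GRCr8) windows of 250 bases before 1 annotated transcript start were found for 5 of the 6 genes, all but Pdgfrb. The windows of Pdgfa and Pdgfb lie wholly before the gene. Of the other windows, 162 bases of Pdgfra, 77 of Pdgfd and none of Pdgfc do, because the annotated bounds of these genes reach further upstream than the transcript start used. For Pdgfa the 250 bases lie at chr12:20759116-20759365 on the plus strand and end just before the gene, with the capitals marking the match to the Sp1 motif GGGCGG, read here on the opposite strand.
Pdgfa: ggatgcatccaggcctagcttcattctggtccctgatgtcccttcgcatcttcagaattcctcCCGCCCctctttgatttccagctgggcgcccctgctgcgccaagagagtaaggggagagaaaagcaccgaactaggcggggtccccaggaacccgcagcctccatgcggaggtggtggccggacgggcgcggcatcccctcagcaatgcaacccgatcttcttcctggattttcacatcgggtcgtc
For Pdgfra, 29 bases at chr14:33408534-33408562 on the minus strand are shown around a match, in capitals, to TGANTCA. That pattern, with any base at N (here A), was the motif searched for AP-1, the dimers of Fos and Jun. This stretch lies inside the annotated bounds of Pdgfra.
Pdgfra: gactataacatTGAATCAattacaaaatg
The Pdgfa match starts 187 bases before the transcript start of its window and the Pdgfra match 35 bases before that of its own. G and C made up 60.8% of the Pdgfa window, against a median of 51.2% over all windows. The Sp1 motif was also matched before Pdgfb and in the Pdgfd window, there inside the annotated bounds of the gene, and 30.5% of the 33469 windows of this length hold it on either strand. The AP-1 motif was in 6.34% of them. The motifs GCGNGGGCG of Egr1 (held by 4.29% of windows, and able to overlap the Sp1 motif), CCGGAAG of Ets factors (7.27%) and TATAAA (12.9%) had no match in the 5 windows, inside or outside the genes. A match describes the letters and is not a measured binding site, and the lack of one says only that these letters are not in the window.

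Pdgfd (ENSRNOG00000029148), which encodes the protease-activated ligand of the beta receptor, was lowest in Thrombin. It stood at 37.4, 32.8 and 30.1 CPM in Control, at 20.9, 24.3 and 21.4 CPM in Thrombin, and at 39.8, 39.6 and 41.3 CPM in PD03. The 3 groups did not overlap, with Thrombin below Control and PD03 above it. With thrombin Pdgfd fell by 33.7% (log2 fold change -0.59, standard error 0.08, adjusted p = 7.1e-08), a call that lay just past the fold threshold. In PD03 it was 80.8% above Thrombin (log2 fold change 0.85, standard error 0.08, adjusted p = 1.6e-12), again a DEG. Against Control the PD03 group was higher by 19.9% (log2 fold change 0.26, adjusted p = 0.0038), short of the fold threshold. This last difference no longer passed with library totals as the scaling (0.15, adjusted p = 0.11), from FPKM with 1 or 0.1 added (0.14 and 0.15, adjusted p = 0.18) or without Control replicate 3 (0.19, adjusted p = 0.068). The call in Thrombin against Control was lost without Control replicate 1, Thrombin replicate 1 or Thrombin replicate 3, where the log2 fold change was -0.50, -0.55 and -0.56.

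Pdgfc (ENSRNOG00000010695), the other protease-activated ligand, which acts through the alpha receptor, passed the test in none of the 3 comparisons of the TMM-scaled fit of all 9 libraries. It stood at 27.3, 31.3 and 24.6 CPM in Control, at 30.4, 31.3 and 31.7 CPM in Thrombin, and at 28.7, 28.9 and 28.8 CPM in PD03. The Control libraries spanned those of PD03 and overlapped those of Thrombin. Its log2 fold change was 0.17 in Thrombin against Control (95% interval 0.01 to 0.32, adjusted p = 0.10), -0.11 in PD03 against Thrombin (-0.26 to 0.04, adjusted p = 0.23) and 0.05 in PD03 against Control (-0.10 to 0.21, adjusted p = 0.62). The test of any difference among the 3 groups gave an adjusted p of 0.14 for Pdgfc, and this test was passed by the other 4 genes tested and by 56.0% of all genes. These values depended on the setting. Without Control replicate 2 the thrombin difference was 0.26 and passed (adjusted p = 0.015), and without Control replicate 3 it was 0.094. PD03 against Thrombin passed with library totals (-0.21, adjusted p = 0.019) and from FPKM with 1 or 0.1 added (-0.19 and -0.21, adjusted p = 0.038 and 0.036).

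Pdgfb (ENSRNOG00000017197), whose B chain binds both receptors, was barely detected. Its raw counts were 0, 0 and 1 in Control, 0, 3 and 3 in Thrombin, and 1, 1 and 0 in PD03. Summed over a group, these were 1, 6 and 2 reads, close to the floor of 3 reads per group (0.0599, 0.0575 and 0.0592 CPM for Control, Thrombin and PD03). The ratio of Thrombin to Control was 5.75, with an exact binomial 95% counting interval of 0.698 to 264.6. The ratio of PD03 to Thrombin was 0.344 (0.0339 to 1.92), and that of PD03 to Control was 1.98 (0.103 to 116.6). Among the platelet genes, Pf4 was at 0 to 5 counts in Control, 4 to 9 in Thrombin and 0 to 1 in PD03, Itga2b at 13 to 31 over all libraries, Gp9 at 0 to 5 and Ppbp at 0 to 1. Pf4 thus also had most reads in Thrombin, whereas Itga2b had its lowest mean there (1.22, 0.914 and 1.53 CPM in Control, Thrombin and PD03). Gp9 had its highest mean in Control (0.112, 0.0366 and 0.0204 CPM). The part of platelet RNA in the Pdgfb counts was not tested. Each interval held 1, so no difference was detectable at this depth, and the intervals cover counting error only.

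Pdgfra (ENSRNOG00000002244), the alpha receptor, fell in both treated groups. Its level was 1938, 1832 and 1819 CPM in Control, 1419, 1287 and 1296 CPM in Thrombin, and 1200.2, 1188 and 1223 CPM in PD03. The Control libraries lay far above the rest, and the Thrombin libraries lay above those of PD03 by a smaller distance. Pdgfra fell by 28.4% with thrombin (log2 fold change -0.48, standard error 0.03, adjusted p = 2.4e-15), which was short of the fold threshold. In PD03 it fell by 9.78% from the Thrombin level (log2 fold change -0.15, standard error 0.03, adjusted p = 0.00033). With library totals as the scaling, Pdgfra fell by 0.25 on the log2 scale. Against Control the PD03 level fell by 35.4%, and here Pdgfra was a DEG (log2 fold change -0.63, 95% interval -0.70 to -0.56, adjusted p = 3.5e-19). Even so, Pdgfra in PD03 was at 172 ± 2.07 FPKM and rank 289, still above Pdgfrb in any group.

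Pdgfrb (ENSRNOG00000018461), the beta receptor, was highest in Thrombin and lowest in PD03. It stood at 379.7, 397 and 405 CPM in Control, at 504, 509 and 498 CPM in Thrombin, and at 309, 312 and 303 CPM in PD03. No libraries of different groups overlapped, and the spread within Thrombin and within PD03 was small (SD 5.39 and 4.44 CPM). With thrombin Pdgfrb rose by 27.9% (log2 fold change 0.35, standard error 0.03, adjusted p = 3.9e-11) without passing the fold threshold. In PD03 it fell by 38.9% from the Thrombin level and was a DEG (log2 fold change -0.71, standard error 0.04, adjusted p = 9.2e-21). PD03 also lay below Control, where Pdgfrb fell by 21.8% (log2 fold change -0.36, standard error 0.04, adjusted p = 4.0e-11), short of the fold threshold. Pdgfrb is also used as a marker of mural cells, the contractile cells around small vessels, so the mural markers are given beside it. The summed level of the 6 mural markers was 51.6 to 56.8 CPM in Control, 86.8 to 88.0 in Thrombin and 90.2 to 96.0 in PD03. Most of it was Cspg4, with means of 41.5, 77.4 and 80.0 CPM, and Des was at 6.92, 7.10 and 7.63 CPM. The other 4 had their lowest mean in Thrombin, where Pdgfrb was highest: Kcnj8 (1.53, 0.827 and 1.52 CPM), Abcc9 (2.24, 1.48 and 2.85), Notch3 (1.21, 0.515 and 1.00) and Rgs5, a defining mural gene (0.118, 0.0183 and 0.390, at 0 to 9 counts). The part of mural cells in the Pdgfrb result was not tested.

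**Figure D2:**
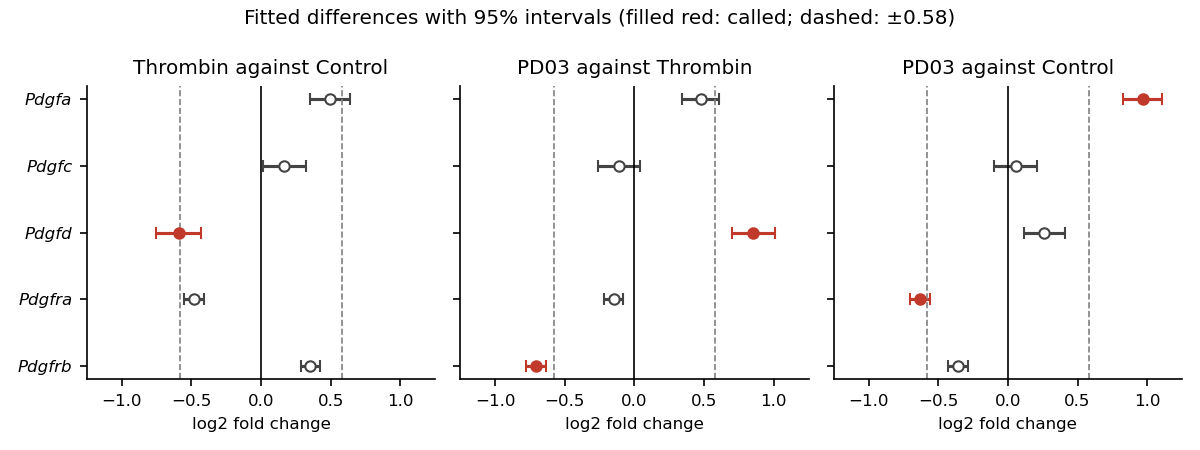
Log2 fold change (horizontal axis) of each tested PDGF gene in the 3 comparisons, with 95% intervals from the edgeR fit and dashed lines at the fold threshold of 0.58. Pdgfd and Pdgfrb lay on opposite sides of 0 in Thrombin against Control and PD03 against Thrombin (-0.59 and 0.85 for Pdgfd, 0.35 and -0.71 for Pdgfrb), and the Pdgfc intervals stayed closest to 0.

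By count, 1 of the 5 tested members was called in Thrombin against Control (Pdgfd, lower), where 8.06% of all tested genes were called (2.62% higher, 5.44% lower). In PD03 against Thrombin 2 were called (Pdgfd higher, Pdgfrb lower) against 15.9% of all genes (9.61% higher, 6.31% lower). In PD03 against Control 2 were called (Pdgfa higher, Pdgfra lower) against 8.97% (4.90% higher, 4.07% lower). Without the fold threshold, Pdgfa, Pdgfd, Pdgfra and Pdgfrb passed in each comparison (Pdgfd in PD03 against Control only under some settings, as given above), where 28.7%, 49.8% and 39.9% of all genes did. In each comparison 2 of the 4 were higher and 2 were lower. Over all genes 14.1%, 25.3% and 19.7% were higher and 14.6%, 24.5% and 20.2% were lower. The median log2 fold change of the 5 was 0.17, -0.11 and 0.05 in the same order, beside -0.0060, 0.011 and -0.0039 over all tested genes. These medians are the values of Pdgfc, since the other genes lay on both sides of it. The 3 comparisons share libraries, so their values are not independent of each other. Side by side, Pdgfa had 0.49 with thrombin and 0.48 in PD03 against Thrombin, and Pdgfra had -0.48 and -0.15. Pdgfd had -0.59 and 0.85, and Pdgfrb 0.35 and -0.71.

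Within a library, the balance of the receptors does not depend on the scaling of libraries. The ratio of Pdgfra to Pdgfrb in FPKM was 4.18, 3.78 and 3.68 in the Control libraries, 2.31, 2.07 and 2.13 in Thrombin, and 3.18, 3.12 and 3.30 in PD03. The alpha receptor was the more abundant in all 9 libraries, its lead was smallest in Thrombin, and the groups did not overlap. The means were 3.88 ± 0.264, 2.17 ± 0.122 and 3.20 ± 0.0938 (SD, n = 3). An exact permutation test of the log2 ratio over the 1680 ways to place 9 libraries in 3 groups gave p = 0.003571, the smallest it can give. In Thrombin both receptors contributed to the smaller ratio, Pdgfra by its lower and Pdgfrb by its higher level. In PD03 both stood below Control.

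Among the ligands, Pdgfa made up 43.0% to 50.8% of the summed FPKM of the 4 genes in Control, 56.1% to 58.3% in Thrombin and 58.6% to 62.8% in PD03. Its share was thus above that of Control in every treated library. The Pdgfd share had a mean of 24.1% in Control, 13.9% in Thrombin and 19.2% in PD03. The Pdgfc share was close in Control (28.9%) and Thrombin (28.4%) and lower in PD03 (19.98%). Its own level passed no test in the TMM-scaled fit of all 9 libraries. From FPKM, the unit of these shares, it passed in PD03 against Thrombin, as given above. These shares count transcripts per length and say nothing of the amount of secreted or processed protein.

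**Figure D3:**
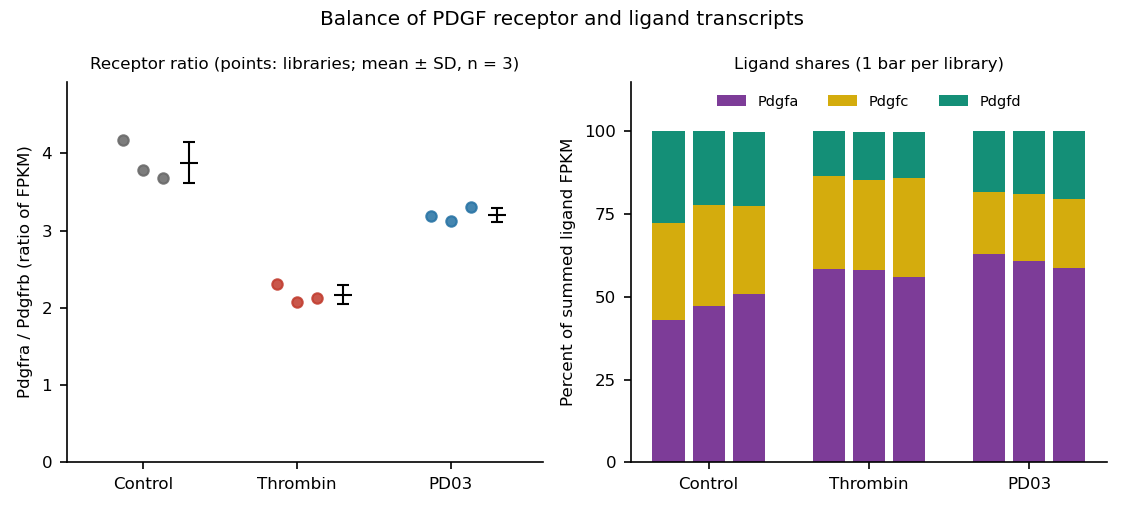
Left, ratio of Pdgfra to Pdgfrb FPKM in each library (points) with the mean ± SD of 3. Right, percent of the summed ligand FPKM held by Pdgfa, Pdgfc and Pdgfd in each library (Pdgfb is too small to see). The receptor ratio was between 2.07 and 2.31 in Thrombin and above 3 in the other 6 libraries, and the Pdgfa part of each bar was smallest in Control.

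The surroundings of the ligands and receptors were described with a list of 50 genes in 8 roles, of which 49 were in the table used here (Junb was not used) and 47 were tested (Kit and Flt3 were too low). Called genes numbered 6 in Thrombin against Control (4 higher, 2 lower), 19 in PD03 against Thrombin (6 higher, 13 lower) and 10 in PD03 against Control (4 higher, 6 lower). These were 12.8%, 40.4% and 21.3% of the 47, beside the background of 8.06%, 15.9% and 8.97%. The list was chosen with earlier results of these data known. The median log2 fold change was 0.03, -0.02 and -0.03.

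The 6 proteases listed for ligand processing held 1 DEG with thrombin and 2 in PD03 against Thrombin (16.7% and 33.3% of them, beside 8.06% and 15.9% of all genes). Pcsk6, a proprotein convertase, fell with thrombin (log2 fold change -0.78, adjusted p = 3.2e-06) and was higher in PD03 than in Thrombin (0.99, adjusted p = 6.6e-09). Plau, the urokinase that is known to activate PDGF-D, was lower in PD03 than in Thrombin (-1.04, adjusted p = 2.4e-09). Pcsk6 moved in the same directions as Pdgfd, and Plau in the opposite one, since Plau had also risen with thrombin (0.51, adjusted p = 0.00070) below the fold threshold. Furin, the convertase known to process the A and B chains, had 0.46 with thrombin and -0.54 in PD03 against Thrombin, both past the test but not the fold threshold. The other processing genes not called had other patterns in these 2 comparisons: Pcsk5 0.32 and 0.07, Plat 0.03 and 0.42, and St14 -0.30 and 0.42. Of these, only the first Pcsk5 value and the second Plat value passed the test.

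Of the 3 binding partners outside the cell, Sparc, a matrix protein that binds PDGF-B, was called in PD03 against Thrombin (0.69, adjusted p = 7.0e-23). That was 33.3% of them, beside 15.9% of all genes. Among the 11 relays that dock on the receptors, Shc1, an adaptor, was called lower in PD03 than in Thrombin (-0.61, adjusted p = 4.9e-18), and Gab1, a docking protein, was called higher (0.65, adjusted p = 2.7e-08). These calls were 18.2% of the relays, close to the 15.9% of all genes, and no relay was called in the other comparisons. None of the 7 attenuators, the phosphatases, ubiquitin ligases and other genes known to limit receptor signalling, was called in any comparison. Over all genes 8.06%, 15.9% and 8.97% were called, so few calls would be looked for among 7 genes. Without the fold threshold 3, 4 and 2 of them passed, or 42.9%, 57.1% and 28.6%, beside 28.7%, 49.8% and 39.9% of all genes.

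Of the 5 transcription factors known from PDGF gene promoters, 1 was called with thrombin, 3 in PD03 against Thrombin and 3 in PD03 against Control, where 8.06%, 15.9% and 8.97% of all genes were. Egr1, an immediate-early zinc finger protein known to drive Pdgfa and Pdgfb, was at 339 ± 45.4 CPM in Control, 243 ± 68.7 in Thrombin and 18.7 ± 1.33 in PD03. Its log2 fold change in PD03 was -3.70 against Thrombin (adjusted p = 1.7e-27) and -4.18 against Control (adjusted p = 6.3e-29), in the same libraries where Pdgfa was highest. Ets1 was called lower in PD03 against Thrombin (-0.94, adjusted p = 7.9e-17) and against Control (-0.81, adjusted p = 2.1e-14). Klf5 fell with thrombin (-1.04, adjusted p = 5.3e-12) and was higher in PD03 than in Thrombin (0.63, adjusted p = 7.1e-07), the directions that Pdgfd also took. Against Control, Klf5 was lower in PD03 (-0.41), where Pdgfd and Pdgfa were higher (0.26 and 0.97). With thrombin, too, Klf5 and Pdgfa moved in opposite directions (Pdgfa 0.49), and only in PD03 against Thrombin were both higher (Pdgfa 0.48). Wt1, a repressor of the Pdgfa promoter in other cells, was called higher in PD03 than in Control (0.72, adjusted p = 0.0033), with overlapping libraries and group means of only 3.44 and 5.68 CPM.

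All 6 tested genes of the list known to be induced by PDGF in fibroblasts were called lower in PD03 than in Thrombin, as were 6.31% of all genes. Among them were Fos (-0.61, with overlapping libraries) and Ier2 (-1.55), both immediate-early genes, and Myc (-0.69). The list also holds the chemokine genes Ccl2 (-0.71) and Cxcl1 (-2.42) and the hyaluronan synthase gene Has2 (-3.59), with adjusted p-values between 0.0040 for Fos and 4.9e-33 for Cxcl1. These genes respond to many other stimuli too, thrombin among them. With thrombin, Has2 rose from 71.4 ± 10.9 to 236 ± 39.1 CPM (log2 fold change 1.73, adjusted p = 8.2e-21), Cxcl1 was also called higher (1.09, adjusted p = 1.8e-21), and the other 4 were not called. In PD03, Has2 stood at 19.8 ± 4.06 CPM, below Control (-1.86, adjusted p = 2.5e-18). Fos, Ier2 and Cxcl1 were also called lower in PD03 than in Control (-0.82, -1.67 and -1.33).

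Of the related receptors, Flt4 was called with thrombin (0.96) and in the other direction in PD03 against Thrombin (-0.92), Kdr was called higher in PD03 against both groups (1.42 and 1.72), and Csf1r was called higher in PD03 than in Control (1.47). Their levels were low, with 0.440 to 3.55 CPM as the range of group means. Kdr is also an endothelial gene, and the endothelial markers, nearly all Tek, were at 9.54 to 10.6 CPM in PD03 against 5.65 to 7.38 in the other libraries, with Tie1 at 0 to 1 counts. Csf1r is also a myeloid gene. The 6 myeloid markers, Csf1r among them, summed to 1.768 to 1.904 CPM in Control, 1.606 to 2.215 in Thrombin and 2.225 to 2.461 in PD03. Of the others, Cd68 (0.623, 0.477 and 0.440 CPM in Control, Thrombin and PD03), Adgre1 (0.253, 0.192 and 0.167) and Itgam (0.292, 0.402 and 0.254) had their lowest mean in PD03. Ptprc had its highest mean in PD03 (0.0392, 0.0758 and 0.147), and Tyrobp its lowest in Thrombin (0.165, 0.0381 and 0.136). The part of endothelial cells in the Kdr result and of myeloid cells in the Csf1r result was not tested. Of the 5 related ligands, 1, 3 and 1 were called in the same order of comparisons, and Vegfa and Vegfc were not called. These were 20.0%, 60.0% and 20.0%, beside the same 8.06%, 15.9% and 8.97% of all genes. Vegfd was at 110.1 CPM in Control, 80.4 in Thrombin and 227 in PD03. It was called higher in PD03 than in Thrombin (1.49, adjusted p = 1.1e-27) and Control (1.04, adjusted p = 4.8e-22). Vegfd, which like Pdgfd is made as a precursor that proteases activate, thus took the same directions as Pdgfd. Pgf had 0.81 with thrombin and -0.67 in PD03 against Thrombin, the directions of Pdgfrb, and Vegfb was called lower in PD03 than in Thrombin (-0.59). In PD03 against Control Pgf had 0.14, where Pdgfrb had -0.36.

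**Figure D4:**
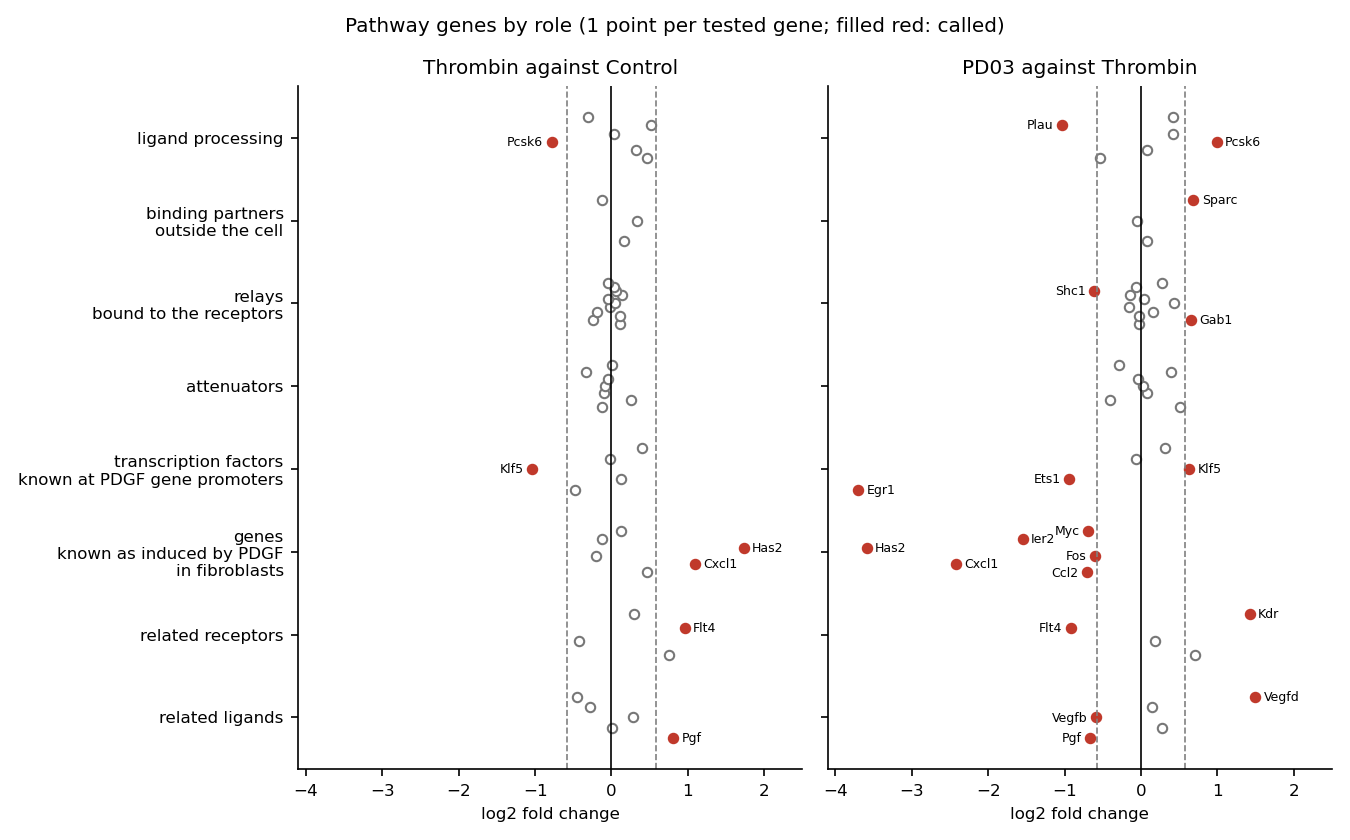
Log2 fold change (horizontal axis) of the 47 tested pathway genes by role in Thrombin against Control (left) and PD03 against Thrombin (right), with called genes in red and dashed lines at the fold threshold of 0.58. The 6 genes known as induced by PDGF all lie below 0 in PD03 against Thrombin, from -0.61 for Fos to -3.59 for Has2, while the 7 attenuators stay within the threshold in both panels. Over all tested genes, 8.06% were called in the left comparison and 15.9% in the right.

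The genes whose levels over the 9 libraries were most like each PDGF gene were found by Pearson correlation of log2(CPM + 0.5), among genes that averaged 10 CPM or more. For Pdgfra they were RGD1311744 (r = 0.994), Zfp36l2 (0.990) and Mnda (0.986), and for Pdgfrb they were Rangap1 (0.998), Vars1 (0.998) and Rrm2 (0.997). Rrm2 encodes a subunit of ribonucleotide reductase, which supplies nucleotides for DNA synthesis, and Vars1 encodes the valine tRNA ligase. For Pdgfa they were Cap1 (0.988), Egfl7 (0.983) and Nfe2l1 (0.981), and for Pdgfd Slc39a8 (0.983), St3gal6 (0.982) and Kif13b (0.981). Pdgfc had the loosest matches, with Prrt2 (0.911), Nr1d2 (0.910) and Mtdh (0.899). The 9 points of each correlation share 3 groups and 1 library scaling, so these values are a description only.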

How the data were processed

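The authors sequenced polyA RNA libraries (NEBNext Ultra kit, Illumina HiSeq). Per their methods, reads were trimmed with fastp, aligned with HISAT2 to Rnor_6.0 and counted with featureCounts, while the submitters' processing notes name HISAT2, HTSeq 0.13.5 and mRatBN7.2. Neither an annotation release nor strandedness is given in the sources used here. The authors deposited 1 table with a raw count and an FPKM value per gene and library, and the FPKM values were these counts divided by gene length and by the library's total in the table.

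Counts were analysed with edgeR 4.0.16 (R 4.3.3): filterByExpr with a minimum count of 10, TMM scaling, and 1 quasi-likelihood fit of the 3 groups over all 9 libraries, with Benjamini-Hochberg adjustment over 13256 genes. DEGs had an adjusted p under 0.05 and changed by more than 0.58 on the log2 scale. Standard errors were taken from the F statistic. Alternatives used DESeq2 1.42.0 and limma 3.58.1, other scalings, filters and thresholds, a replicate block, and the omission of each library. The procedure was tested on simulated data. Python 3.11.15 with matplotlib 3.10.9 drew the figures. RefSeq (GRCr8) gave the sequences and none of the values.

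The 6 PDGF genes are named with values, together with listed pathway genes called in at least 1 comparison and the 3 genes most like each member. Furin, Pcsk5, Plat and St14 were added after their values were seen. Members and lists were chosen with earlier results of these data known. No library repeated another of its group: chi-square divided by its degrees of freedom was 1.82 to 4.03, so 9 samples were kept. Replicate numbers did not pair the samples.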

Additional observations from a re-analysis of the deposited data

How the results depend on the processing

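The 15 log2 fold changes of the 5 tested PDGF genes were recomputed under 21 alternatives each. Of these 315 values, 293 kept their direction and their side of the threshold, 11 no longer passed it, 7 newly passed it and 4 changed sign. All 4 sign changes were of Pdgfc in PD03 against Control (0.054), which had -0.062 with library totals as the scaling, -0.050 from FPKM with 1 added, -0.054 with 0.1 added, and -0.028 to 0.14 when single libraries were left out, the lowest without Control replicate 3. The adjusted p alone changed its side of 0.05 in 8 of the 270 values it could be read for, 4 of them of Pdgfc, and 4 of Pdgfd in PD03 against Control, with their values given above. With library totals the median over all tested genes was -0.12 in PD03 against Control and -0.09 in PD03 against Thrombin.

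The number of members called in Thrombin against Control (1) was 4 without a fold threshold and 0 with a log2 threshold of 1, with edgeR's glmTreat or from FPKM with 1 added, where Pdgfd had -0.53, and leaving out single libraries gave 0 to 1. In PD03 against Thrombin (2) it was 4 without a fold threshold and 0 with a threshold of 1. In PD03 against Control (2) it was 4, 0 and, with glmTreat, 1, since Pdgfra then had an adjusted p of 0.41. Without a fold threshold the pathway list had 25, 31 and 28 called genes in the 3 comparisons, or 53.2%, 66.0% and 59.6% of it, beside 28.7%, 49.8% and 39.9% of all genes.

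With the replicate number as a block, the members called were 1, 2 and 2, as without it. Same-numbered libraries of different groups had correlated deviations of -0.0407 to 0.069, so the numbers were not read as pairs. A planned ratio of Pdgfa to Pdgfb could not be computed, since Pdgfb was at 0 in 4 of 9 libraries. Among the members, depth kept only Pdgfb from being tested.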

Other observations

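Pdgfrl, which encodes a secreted protein resembling the PDGF receptors and is no member of the ligand and receptor set, was looked at after its values were seen. It stood at 29.9, 30.3 and 32.4 CPM in Control, at 23.1, 25.99 and 25.4 CPM in Thrombin, and at 66.2, 62.7 and 66.4 CPM in PD03. The groups did not overlap, and every PD03 library was above all others. In the edgeR quasi-likelihood fit its log2 fold change was -0.31 in Thrombin against Control (adjusted p = 0.00056), 1.39 in PD03 against Thrombin (adjusted p = 1.3e-21) and 1.08 in PD03 against Control (adjusted p = 5.6e-18). Both receptor genes fell in PD03 against Thrombin, where Pdgfrl was a DEG in the other direction.

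Fibroblast markers, read as a summed level of 5 genes, were at 1203 to 1276 CPM in Control, 1036 to 1048 in Thrombin and 1101 to 1165 in PD03. All 5 had their lowest mean in Thrombin, as Pdgfd had, though Dpt differed little there from Control (39.5 and 40.0 CPM). Scara5 had means of 69.7, 15.1 and 41.6 CPM in Control, Thrombin and PD03. In PD03 it thus stayed below Control, where the mean of Pdgfd was above it (40.2 against 33.4 CPM). The osteoblast markers had a summed level of 44413 to 49383 CPM in Control, 41345 to 44750 in Thrombin and 71253 to 73227 in PD03, most of it Col1a1. Their part in the differences of the PDGF genes was not tested.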
